A study of Mus musculus with 20 samples.

Results

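The genes described here are the 38 genes of an acute phase and inflammatory cytokine response, chosen by symbol out of the 36106 genes of a liver count table, in livers of male mice. They comprise secreted acute phase proteins, cytokines and chemokines with their receptors, and the intracellular signalling genes of interleukin-1 and interleukin-6. All 38 were found in the table, and 37 passed a filter on low counts (edgeR's filterByExpr at a minimum count of 10) among the 16164 genes tested. Cxcl2, a neutrophil-attracting chemokine, did not pass: it held 160 counts over all libraries and at most 38 in a library.

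The mice were sham-operated or orchiectomized (testes removed, ORX) and then kept for 2 weeks in normoxia (Nx) or in intermittent hypoxia (IH, repeated short falls in inspired oxygen). The groups are sham-operated mice in normoxia (Sham_Nx), sham-operated mice in intermittent hypoxia (Sham_IH), orchiectomized mice in normoxia (ORX_Nx) and orchiectomized mice in intermittent hypoxia (ORX_IH). Values of 19 of the 20 mice were used, 4 in Sham_Nx (mice 2 to 5, mouse 1 was not analysed here) and 5 in each other group. Each library is named by its group and mouse number. Nothing else distinguishes the groups in the labels apart from library numbers, which run in blocks by group. They are 1 to 4 and 17 in ORX_Nx, and 5 to 8 and 18 in ORX_IH. In the sham-operated mice used they are 10 to 12 and 19 in Sham_Nx, and 13 to 16 and 20 in Sham_IH. What the library numbers stand for is not stated, and their part in the values was not tested. The strain, the age, the hormone levels and the depth of hypoxia are not given in the sources used here. The labels number the mice separately within each group, so p-values measure the spread between mice.

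The acute phase response is the change in what the liver secretes when tissue is injured or infected. Macrophages release tumour necrosis factor, interleukin-1 and interleukin-6. These act on hepatocytes through the factors NF-kB, STAT3 and C/EBP, which switch on genes of serum amyloid A, orosomucoid, haptoglobin, fibrinogen and other secreted proteins. In mice serum amyloid A is the most strongly induced of these proteins, whereas C-reactive protein is a minor one.

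Libraries held 29291573 to 69550879 estimated counts. The 8 hepatocyte markers (Alb, Apoa1, Apob, Ttr, Cps1, Hnf4a, Pck1, Tat) summed to 71686 to 114466 CPM (counts scaled to library size) over the libraries, and each was detected in all of them, so the labelled tissue was present throughout. Kupffer cell and macrophage markers stood highest in ORX_Nx 4 and ORX_Nx 5. Skeletal muscle genes summed to 633 CPM in ORX_IH 2 and 1074 CPM in ORX_IH 1, and to 1.04 to 173.8 CPM in the other libraries. Pancreatic genes summed to 175.0 CPM in ORX_IH 1, 393.5 CPM in Sham_Nx 5 and 997 CPM in Sham_IH 5, and to 18.6 CPM or less in the rest. In bulk tissue, fewer cells of a type and less RNA per cell cannot be told apart.

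At rest the members covered a wide range of abundance. Per kilobase of transcript, the Sham_Nx mean was highest for haptoglobin (Hp, 2235 CPM per kilobase), hemopexin (Hpx, 1780), and the fibrinogen chains Fga (1739) and Fgg (1531). The inducible forms were low in the same mice: Saa1 stood at 25.6, Saa2 at 13.3, Orm2 at 6.79 and Lcn2 at 3.71 CPM per kilobase. Cytokines and chemokines were also low, with Il1b at 2.48, Cxcl1 at 1.73, Ccl2 at 0.607 and Tnf at 0.124 CPM per kilobase.

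Orchiectomy in normoxia was the comparison in which the members differed most often from their control. Of 37 tested members, 22 rose in ORX_Nx against Sham_Nx and none fell at an adjusted p under 0.05 (edgeR quasi-likelihood F-test, Benjamini-Hochberg over all genes), where 7.88% of all genes rose and 6.46% fell. The median log2 fold change was 0.74 over the members and 0.013 over all genes tested, and 34 of 37 members were above 0. In 16 members every ORX_Nx library lay above every Sham_Nx library, against 5.69% of all genes. Over all genes 1274 rose and 1045 fell, a split that was 2362 to 372 without scaling factors, when the median of all genes moved to 0.14 and 24 members rose. Of the 22 calls, 11 held without each single library and 3 in every alternative run (Orm2, Itih4 and Il1rn). The rises were steepest in Cxcl1, Lcn2, Saa2, Orm3, Orm2 and Saa1, between 11.4-fold and 30.2-fold. Leaving out 1 library gave 12 to 23 members that rose, with 12 without Sham_Nx 4 or without Sham_Nx 5 and 13 without Sham_Nx 2 or without Sham_Nx 3. Over all genes 560, 662, 729 and 844 rose without Sham_Nx 4, 5, 2 and 3, against 1274 in the main fit. Leaving out the 4 libraries with the most muscle RNA (ORX_IH 1, ORX_IH 2, Sham_Nx 2 and Sham_Nx 3) left 2 Sham_Nx libraries and 3 members that rose (Orm2, Itih4 and Il1rn), where 147 of all genes rose. Without both ORX_Nx 4 and ORX_Nx 5 the median was 0.35, and 7 members rose, where 702 of all genes rose. The 7 were Cxcl1, Orm2, Orm3, Fgl1, Itih4, Il1rn and Socs3. These 2 libraries hold the group's highest value in 26 and 11 of the 37 members. This setting, wherever used below, thus leaves out each member's highest ORX_Nx value by construction.

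**Figure D1:**
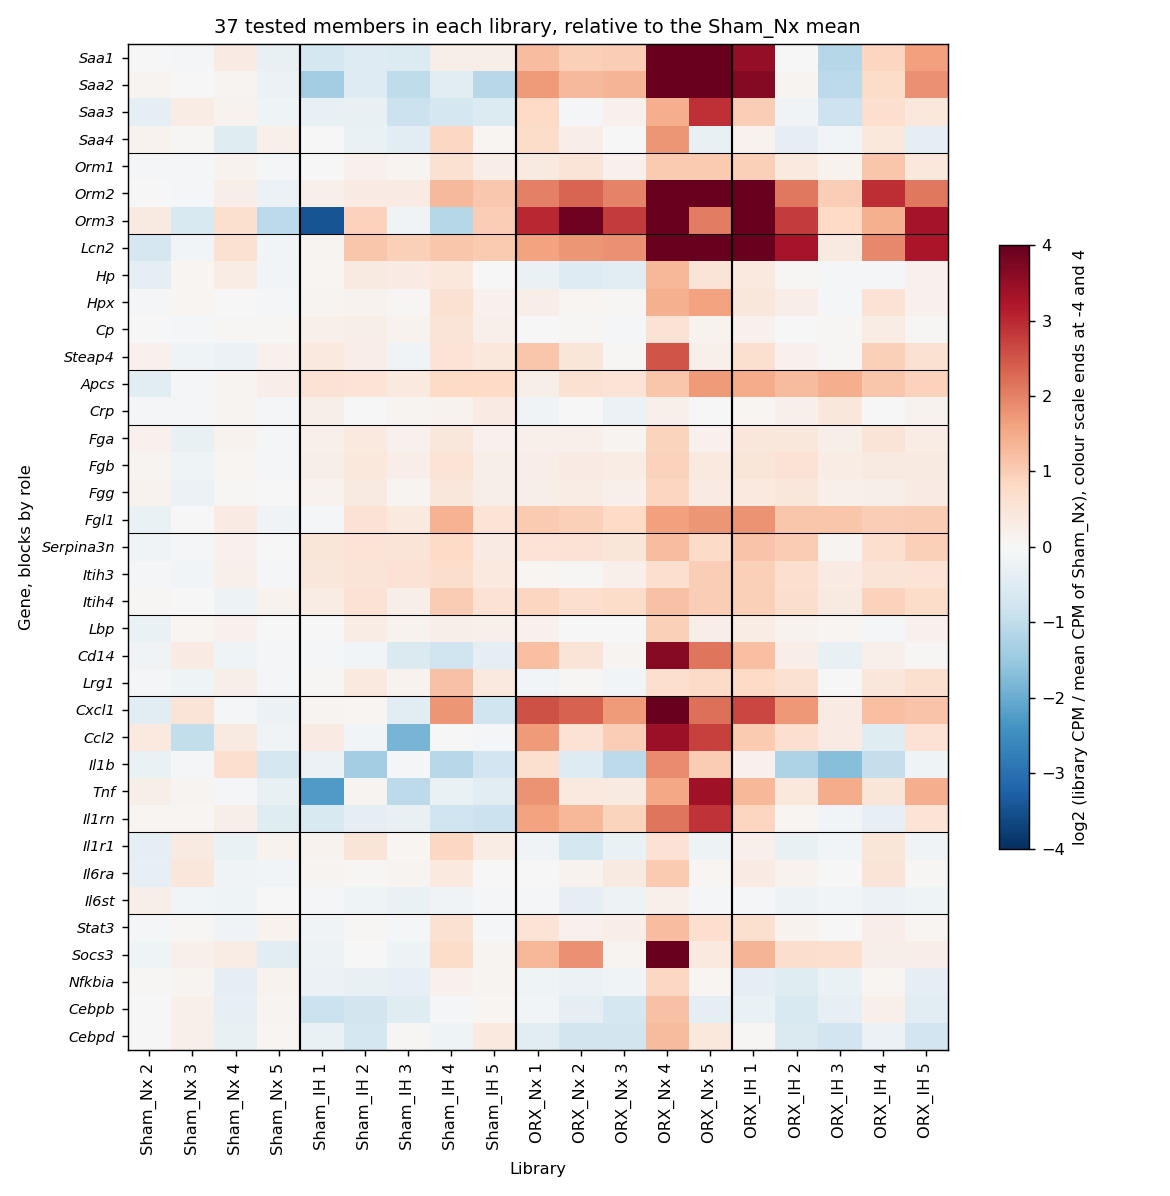
Each row is 1 of the 37 tested members and each column 1 library; colour gives log2 of the library's CPM over the mean CPM of Sham_Nx, with the colour scale ending at -4 and 4, and lines separate groups and roles. ORX_Nx 4 is more than 2-fold above the Sham_Nx mean in 26 members, ORX_Nx 5 in 16, and ORX_IH 1 and ORX_Nx 1 in 13 each. The shares of all genes above 2-fold are 8.53% in ORX_Nx 4, 13.1% in ORX_Nx 5, 8.15% in ORX_IH 1 and 4.75% in ORX_Nx 1.

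The cytokines and chemokines were led by Cxcl1, which draws neutrophils into tissue. Cxcl1 was at 1.26, 2.42, 1.63 and 1.42 CPM in Sham_Nx 2 to 5 and at 9.92, 8.73, 5.49, 222 and 7.82 CPM in ORX_Nx 1 to 5. In the hypoxic groups it was at 1.83, 1.77, 1.24, 5.66 and 0.959 CPM in Sham_IH 1 to 5 and at 10.8, 5.57, 2.09, 3.86 and 3.73 CPM in ORX_IH 1 to 5. ORX_Nx 4 stood far above all other libraries, yet the other 4 libraries of its group were also all above the highest Sham_Nx library. The log2 fold change in normoxia was 4.92 ± 1.11 (SE, adjusted p = 0.00833), and it was 2.25 ± 0.55 (adjusted p = 0.0176) without ORX_Nx 4 and ORX_Nx 5. ORX_Nx 4 held the group's highest value, so a smaller estimate followed from leaving it out. The call was lost with limma-voom, in a fit of ORX_Nx and Sham_Nx alone and without the 4 muscle-rich libraries, at an adjusted p of up to 0.132, and DESeq2 gave Cxcl1 no adjusted p.

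The promoter of Cxcl1 is shown because it holds matches to the NF-kB consensus and to TTGCNNCAA, the only pattern searched for C/EBP (GRCm38.p6, chr5:90890995-90891244, + strand). Whether the latter match is a C/EBP site was not tested. The sequence is the 250 bases before the gene's start, 5′ to 3′. Capitals mark a match to TTGCNNCAA on the other strand and, closer to the start, 2 overlapping NF-kB matches.

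Cxcl1: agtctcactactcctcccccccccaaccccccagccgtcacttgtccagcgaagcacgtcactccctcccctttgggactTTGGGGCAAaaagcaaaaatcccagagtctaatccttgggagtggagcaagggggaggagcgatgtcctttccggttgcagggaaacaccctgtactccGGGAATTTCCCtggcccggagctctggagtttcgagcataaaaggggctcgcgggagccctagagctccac

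Ccl2, which recruits monocytes, was at 0.527, 0.202, 0.517 and 0.363 CPM in Sham_Nx and 1.31, 0.599, 0.798, 4.29 and 2.65 CPM in ORX_Nx. It rose by 2.25 ± 0.53 (log2, adjusted p = 0.0105), with ORX_Nx 4 and ORX_Nx 5 highest and no overlap between the groups. The Ccl2 call was lost in 6 of 13 settings other than leaving out 1 library, among them without ORX_Nx 4 and ORX_Nx 5 (1.16 ± 0.43, adjusted p = 0.108), with limma-voom and in a fit of the 2 groups alone, at an adjusted p of up to 0.115. Tnf, an upstream trigger of the response, was at 0.203, 0.184, 0.162 and 0.138 CPM in Sham_Nx and 0.603, 0.225, 0.220, 0.500 and 1.79 CPM in ORX_Nx. Tnf rose by 1.91 ± 0.55 (adjusted p = 0.0271) from a low base of 334 counts over all libraries, and the call was lost without any 1 of the Sham_Nx libraries or without ORX_Nx 5, at an adjusted p of up to 0.0780. Il1b, the secreted interleukin-1 beta, did not pass the test: it was at 2.11, 2.46, 4.07 and 1.57 CPM in Sham_Nx and 4.00, 1.80, 1.22, 9.48 and 5.17 CPM in ORX_Nx, with overlapping groups and a log2 fold change of 0.76 ± 0.50.

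Il1rn encodes the interleukin-1 receptor antagonist, which blocks interleukin-1 at its receptor. It was at 1.62, 1.60, 1.79 and 1.09 CPM in Sham_Nx 2 to 5 and at 4.70, 3.84, 2.85, 6.78 and 11.3 CPM in ORX_Nx 1 to 5. In the hypoxic groups it was at 1.01, 1.17, 1.24, 0.870 and 0.835 CPM in Sham_IH and 2.74, 1.60, 1.41, 1.22 and 2.25 CPM in ORX_IH. Every ORX_Nx library was above every other library of the study. Its log2 fold change of 1.94 ± 0.34 had the lowest adjusted p of the members in this comparison (edgeR, 0.00140). The call held in each of the 32 alternatives run, at an adjusted p of up to 0.0364. Without ORX_Nx 4 and ORX_Nx 5 it was 1.31 ± 0.26 (adjusted p = 0.00527).

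In ORX_Nx, macrophage markers were highest in ORX_Nx 4 and ORX_Nx 5, the libraries that led the members. The 12 Kupffer cell and macrophage markers summed to 226 to 368 CPM in Sham_Nx, 196.0 to 263 CPM in Sham_IH, 299.0 to 1284 CPM in ORX_Nx and 273.6 to 422 CPM in ORX_IH. ORX_Nx 4 had the highest sum, 1284 CPM, and ORX_Nx 5 the next, 843 CPM. In the other groups the library highest in the most members did not have the highest sum. ORX_IH 1, highest of its group in 23 members, had 371 CPM, below 422 CPM in ORX_IH 4. Sham_IH 4, highest of its group in 23 members, had 225 CPM, below 263 CPM in Sham_IH 1. Sham_Nx 4, highest of its group in 17, had the lowest sum there, 226 CPM. At the low end, ORX_IH 3 and Sham_IH 3, lowest of their groups in 22 and 14 members, had the lowest sums there. These were 273.6 and 196.0 CPM. Sham_Nx 2, lowest of its group in 12 members, had the highest sum there, 368 CPM. In ORX_Nx against Sham_Nx 11 of the 12 rose, with Clec4f and Timd4, defining markers of resident Kupffer cells, by 0.78 ± 0.22 and 1.25 ± 0.38 (log2). The 10 neutrophil markers summed to 51.8 CPM in ORX_Nx 4 and 12.5 CPM in ORX_Nx 5, against 2.77 to 8.20 CPM in all other libraries, and Ly6g, a defining neutrophil marker, was at 0 in 6 libraries. The 10 lymphocyte markers summed to 3.84 to 5.93 CPM in Sham_Nx and to 7.17 to 18.1 CPM in ORX_Nx, highest in ORX_Nx 5, and 2 of the 10 rose, Gzma and Klrb1c. The part of these cells in the members' rise was not tested.

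None of the 3 receptors passed the test in any comparison. Il6ra, the ligand-binding receptor of interleukin-6, was at 30.4, 53.1, 35.3 and 35.3 CPM in Sham_Nx 2 to 5 and at 39.2, 42.8, 49.1, 80.3 and 40.6 CPM in ORX_Nx 1 to 5. In the hypoxic groups Il6ra was at 42.0, 39.8, 41.8, 50.5 and 38.7 CPM in Sham_IH and 48.2, 42.8, 39.1, 55.5 and 39.5 CPM in ORX_IH. ORX_Nx 4 was the highest library, the groups overlapped, and the log2 fold change in normoxia was 0.39 ± 0.19 (adjusted p = 0.181). Il6st, the shared signal-transducing subunit gp130, was nearly level at -0.10 ± 0.10 (95% interval -0.29 to 0.10), and Il1r1, the interleukin-1 receptor, at -0.087 ± 0.22 (95% interval -0.53 to 0.35).

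Downstream of the receptors, Stat3 and its feedback inhibitor Socs3 rose in ORX_Nx, and the other 3 intracellular members did not pass the test. Stat3 was at 73.9, 80.6, 70.7 and 85.2 CPM in Sham_Nx 2 to 5 and at 113, 88.2, 93.5, 182 and 123 CPM in ORX_Nx 1 to 5. In hypoxia Stat3 was at 70.6, 79.8, 74.6, 119 and 73.1 CPM in Sham_IH and 120.1, 84.6, 77.8, 92.6 and 82.3 CPM in ORX_IH. The normoxic groups did not overlap, and the log2 fold change was 0.63 ± 0.19 (adjusted p = 0.0361); the call was lost without any 1 of the 4 Sham_Nx libraries or without ORX_Nx 4 or ORX_Nx 5, at an adjusted p of up to 0.104.

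Socs3 was at 6.53, 8.46, 9.09 and 5.55 CPM in Sham_Nx 2 to 5 and at 18.6, 26.4, 7.92, 141 and 9.64 CPM in ORX_Nx 1 to 5. In hypoxia Socs3 was at 6.50, 7.43, 6.44, 12.3 and 7.92 CPM in Sham_IH and 18.9, 12.2, 11.8, 8.65 and 8.91 CPM in ORX_IH. ORX_Nx 4 alone was above 100 CPM, while ORX_Nx 3 and ORX_Nx 5 lay within or close to the sham-operated range. Its log2 fold change was 2.46 ± 0.65 (adjusted p = 0.0188), 1.25 ± 0.34 (adjusted p = 0.0310) without ORX_Nx 4 and ORX_Nx 5, and the call was lost without Sham_Nx 2 or without Sham_Nx 5 (adjusted p of up to 0.0567). Cebpb, Cebpd and Nfkbia, an inhibitor of NF-kB, gave log2 fold changes of 0.10 ± 0.30, 0.18 ± 0.34 and 0.13 ± 0.19 in normoxia. ORX_Nx 4 was the highest library of the study for each of these 3, at 135.3 CPM of Cebpb, 12.3 CPM of Cebpd and 52.6 CPM of Nfkbia.

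The promoter of Socs3 is shown as that of the STAT3 feedback gene, with its single STAT3 match in capitals (GRCm38.p6, chr11:117969367-117969616, - strand, 250 bases before the start, 5′ to 3′).

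Socs3: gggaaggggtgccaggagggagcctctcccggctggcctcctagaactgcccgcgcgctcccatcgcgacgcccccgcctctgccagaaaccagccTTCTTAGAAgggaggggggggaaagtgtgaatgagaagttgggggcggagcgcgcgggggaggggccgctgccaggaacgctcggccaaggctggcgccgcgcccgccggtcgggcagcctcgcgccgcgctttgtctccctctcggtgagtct

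The serum amyloids are apolipoproteins of high-density lipoprotein that can be induced in inflammation, with Saa1 and Saa2 made by hepatocytes, Saa3 made by macrophages and other cells as well, and Saa4 made constitutively. They are neighbours on chromosome 7, in the order Saa3, Saa4, Saa1 and Saa2. The promoters of Saa1 and Saa2 are shown because the genes rose together and their promoters are near copies: 238 of 251 aligned positions were identical, 94.8%. In this window of 250 bases before the start, neither holds a match to the STAT3 motif, the NF-kB consensus or TTGCNNCAA. The last was the only pattern searched for C/EBP, so the absence of C/EBP sites of other spacing is not shown. Both are therefore printed without capitals (GRCm38.p6, Saa1 at chr7:46742981-46743230, - strand, and Saa2 at chr7:46751583-46751832, + strand).

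Saa1: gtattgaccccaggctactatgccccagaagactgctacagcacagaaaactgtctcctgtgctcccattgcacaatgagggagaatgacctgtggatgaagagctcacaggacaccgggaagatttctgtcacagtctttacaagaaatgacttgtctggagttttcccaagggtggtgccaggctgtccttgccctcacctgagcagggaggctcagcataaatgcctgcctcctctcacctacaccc

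Saa2: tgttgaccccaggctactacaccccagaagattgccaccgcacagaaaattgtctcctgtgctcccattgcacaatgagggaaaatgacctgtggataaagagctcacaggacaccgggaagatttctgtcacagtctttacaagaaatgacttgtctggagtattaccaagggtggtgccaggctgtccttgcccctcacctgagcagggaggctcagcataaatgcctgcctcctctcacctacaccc

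Saa1 was at 11.6, 10.9, 14.5 and 9.46 CPM in Sham_Nx 2 to 5 and at 27.4, 22.5, 22.7, 248 and 343 CPM in ORX_Nx 1 to 5. In hypoxia Saa1 was at 7.08, 8.06, 8.03, 13.7 and 13.7 CPM in Sham_IH and 133.8, 11.8, 5.22, 21.1 and 35.9 CPM in ORX_IH. Its normoxic groups did not overlap, ORX_Nx 4 and ORX_Nx 5 were each above 200 CPM, and ORX_IH 1 stood above the rest of its own group. The log2 fold change in normoxia was 3.51 ± 0.95 (adjusted p = 0.0208); the call was lost without any 1 Sham_Nx library or without ORX_Nx 5, at an adjusted p of up to 0.0589.

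Saa2 was at 6.51, 6.06, 6.54 and 5.12 CPM in Sham_Nx 2 to 5 and at 19.8, 14.8, 15.6, 102 and 317 CPM in ORX_Nx 1 to 5. In hypoxia Saa2 was at 2.34, 4.24, 2.97, 4.42 and 2.79 CPM in Sham_IH and 77.1, 6.50, 2.91, 10.0 and 21.5 CPM in ORX_IH. All ORX_Nx libraries were above all Sham_Nx libraries, and all Sham_IH libraries were below them. The normoxic log2 fold change was 3.95 ± 1.00 (adjusted p = 0.0154), and it held without each single library, but without ORX_Nx 4 and ORX_Nx 5 together it was 1.46 ± 0.70 (adjusted p = 0.215), as Saa1 was 1.06 ± 0.69 (adjusted p = 0.373). Of the 31-base windows of the Saa1 transcript, 26.8% also occur in Saa2 transcripts (GENCODE vM21), so reads from those stretches fit both genes, and how the counting divided them was not tested.

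Saa3 was led by ORX_Nx 5 alone, at 5.67, 3.13, 3.63, 8.91 and 24.8 CPM in ORX_Nx 1 to 5 against 2.51, 3.98, 3.59 and 2.89 CPM in Sham_Nx. Saa3 rose by 1.5 ± 0.49 (adjusted p = 0.0471), a call that was lost in 14 of the 19 fits that left out 1 library, with an adjusted p of up to 0.180. Saa4, the constitutive form, was highest in ORX_Nx 4 at 402 CPM and was at 94.3 CPM in ORX_Nx 5, and it did not pass the test (0.70 ± 0.35, adjusted p = 0.182).

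**Figure D2:**
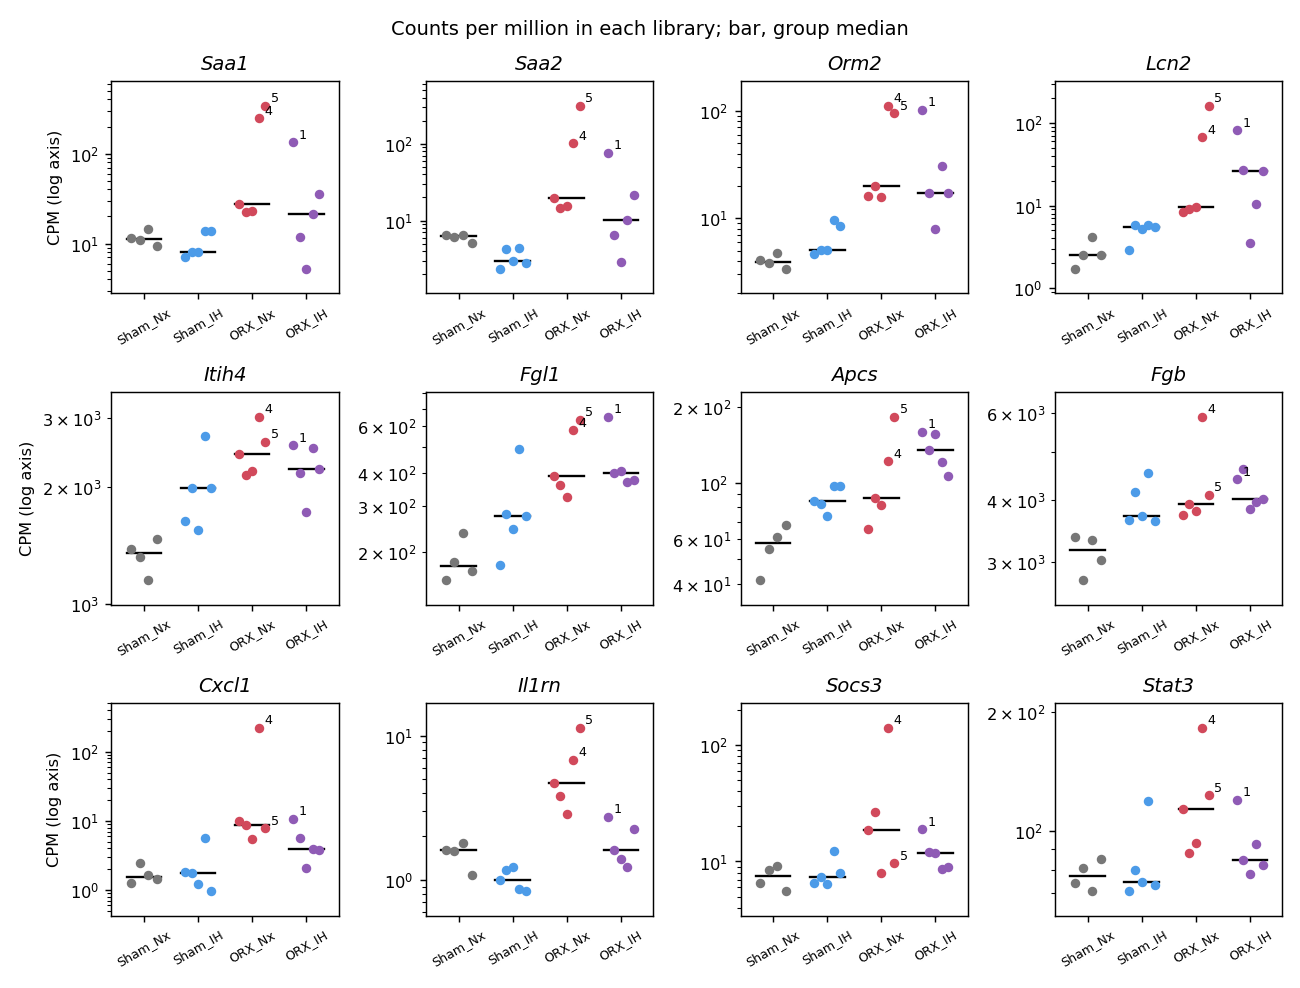
Each panel gives the CPM of 1 member on a log axis, with 1 point per library and a bar at the group median; the digits mark ORX_Nx 4, ORX_Nx 5 and ORX_IH 1. Cxcl1 and Socs3 are highest in ORX_Nx 4 and near the group's other libraries in ORX_Nx 5, whereas Saa2, Lcn2 and Il1rn are highest in ORX_Nx 5.

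The orosomucoids, acid glycoproteins of plasma that bind drugs and lipids, lie side by side on chromosome 4 in the order Orm1, Orm3 and Orm2, and all 3 rose in ORX_Nx. Orm1, the abundant form, was at 264, 273, 312 and 274 CPM in Sham_Nx 2 to 5 and at 363, 399, 315, 582 and 577 CPM in ORX_Nx 1 to 5. In hypoxia Orm1 was at 283, 318, 301, 432 and 341 CPM in Sham_IH and 539, 365, 306, 609 and 373 CPM in ORX_IH. The normoxic groups did not overlap for Orm1, but the rise was small, 0.67 ± 0.21 (adjusted p = 0.0363), and the call was lost without any 1 Sham_Nx library or without ORX_Nx 4 or ORX_Nx 5, at an adjusted p of up to 0.0885.

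Orm2 was at 4.06, 3.84, 4.73 and 3.37 CPM in Sham_Nx 2 to 5 and at 16.3, 20.1, 15.7, 112 and 94.6 CPM in ORX_Nx 1 to 5. In hypoxia Orm2 was at 4.63, 5.06, 5.03, 9.73 and 8.53 CPM in Sham_IH and 102, 17.1, 7.91, 30.8 and 17.1 CPM in ORX_IH. Each ORX_Nx library was more than 3-fold above the Sham_Nx mean, at 4.07-fold, 5.01-fold, 3.93-fold, 27.99-fold and 23.7-fold in mice 1 to 5. The log2 fold change was 3.69 ± 0.76 (adjusted p = 0.00487), and 2.11 ± 0.59 (adjusted p = 0.0343) without ORX_Nx 4 and ORX_Nx 5. The call held in each of the 32 alternatives run, at an adjusted p of up to 0.04997, the edge of the threshold.

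Orm3 was at 0.507, 0.257, 0.614 and 0.190 CPM in Sham_Nx 2 to 5 and at 3.15, 5.81, 2.75, 12.4 and 1.62 CPM in ORX_Nx 1 to 5. In hypoxia Orm3 was at 0.0359, 0.744, 0.358, 0.177 and 0.782 CPM in Sham_IH and 9.13, 2.73, 0.675, 1.06 and 3.95 CPM in ORX_IH, where the Sham_IH 1 value is under the 0.102 CPM that 3 counts give in that library. Orm3 was low everywhere, and here ORX_Nx 5 was the lowest library of its group and ORX_Nx 4 the highest. Its rise was 3.71 ± 0.82 (adjusted p = 0.00773), and 3.30 ± 0.79 (adjusted p = 0.0156) without both of those libraries. The transcripts of Orm2 and Orm3 share 9.396% of their 31-base windows as counted in Orm2, and those of Orm2 and Orm1 27.5%, and how the counting divided reads from these stretches was not tested.

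Of the 5 proteins that bind metal or haem, or handle iron and copper, 3 rose in ORX_Nx. Lcn2, lipocalin-2, which withholds iron from bacteria by binding their siderophores, was at 1.70, 2.53, 4.10 and 2.49 CPM in Sham_Nx 2 to 5 and at 8.28, 9.12, 9.55, 67.1 and 164 CPM in ORX_Nx 1 to 5. In hypoxia Lcn2 was at 2.91, 5.84, 5.20, 5.87 and 5.54 CPM in Sham_IH and 82.3, 26.9, 3.50, 10.3 and 26.3 CPM in ORX_IH. The normoxic groups did not overlap. The log2 fold change was 4.24 ± 0.98 (adjusted p = 0.00951) and held without each single library, but without ORX_Nx 4 and ORX_Nx 5 it was 1.72 ± 0.66 (adjusted p = 0.117).

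Hp, haptoglobin, which binds free haemoglobin, was at 1971, 2659, 3094 and 2332 CPM in Sham_Nx 2 to 5 and at 2113, 1778, 1844, 6368 and 3624 CPM in ORX_Nx 1 to 5. In hypoxia Hp was at 2656, 3211, 3151, 3401 and 2546 CPM in Sham_IH and 3306, 2597, 2361, 2401 and 2808 CPM in ORX_IH. ORX_Nx 1, 2 and 3 lay within or below the Sham_Nx range and ORX_Nx 4 and 5 above it, so the groups overlapped and the log2 fold change of 0.32 ± 0.29 did not pass the test (adjusted p = 0.491). Hpx, hemopexin, which binds free haem, was at 2175, 2397, 2309 and 2200.1 CPM in Sham_Nx and 2747, 2412, 2329, 6024 and 6883 CPM in ORX_Nx. Hpx rose by 0.85 ± 0.28 (adjusted p = 0.0478), but the call was lost in 13 of the 19 fits that left out 1 library, with an adjusted p of up to 0.133. Steap4, a metalloreductase, was at 97.8, 77.1, 74.1 and 97.3 CPM in Sham_Nx and 189, 119.9, 90, 499 and 101 CPM in ORX_Nx, with overlapping groups. Steap4 rose by 1.21 ± 0.38 (adjusted p = 0.0434), a call lost in 11 of those 19 fits at an adjusted p of up to 0.126. Cp, the copper carrier ceruloplasmin, gave 0.14 ± 0.12 (adjusted p = 0.445).

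Among Cd14, Lbp and Lrg1, only Cd14 passed the test in normoxia. Cd14, the co-receptor of bacterial lipopolysaccharide, was at 1.38, 1.91, 1.36 and 1.44 CPM in Sham_Nx 2 to 5 and at 3.51, 2.19, 1.65, 19.1 and 6.76 CPM in ORX_Nx 1 to 5. In hypoxia Cd14 was at 1.47, 1.41, 1.02, 0.870 and 1.19 CPM in Sham_IH and 3.47, 1.83, 1.24, 1.76 and 1.56 CPM in ORX_IH. ORX_Nx 4 and ORX_Nx 5 were the highest libraries, and ORX_Nx 3 lay within the Sham_Nx range. Cd14 rose by 2.13 ± 0.55 (adjusted p = 0.0170), with an adjusted p of 0.0553 without Sham_Nx 4 and 0.192 without ORX_Nx 4 and ORX_Nx 5. Lbp, which hands lipopolysaccharide to Cd14, and Lrg1, a secreted glycoprotein, gave 0.33 ± 0.15 and 0.31 ± 0.23.

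Of the pentraxins, Apcs (serum amyloid P, an acute phase pentraxin of the mouse) rose and Crp, C-reactive protein, did not pass the test. Apcs was at 41.4, 55.0, 60.9 and 68.1 CPM in Sham_Nx 2 to 5 and at 65.8, 86.9, 81.7, 121.6 and 182 CPM in ORX_Nx 1 to 5. In hypoxia Apcs was at 85.0, 82.5, 73.7, 97.0 and 97.2 CPM in Sham_IH and 159, 134.8, 156, 121 and 107 CPM in ORX_IH. ORX_Nx 1 lay within the Sham_Nx range, and both hypoxic groups lay wholly above Sham_Nx. Apcs rose by 0.93 ± 0.23 in ORX_Nx (adjusted p = 0.0129), and by 0.47 ± 0.16 (adjusted p = 0.0795) without ORX_Nx 4 and ORX_Nx 5, which ends the call. Crp lies beside Apcs on chromosome 1 and was level, at -0.030 ± 0.10 (95% interval -0.22 to 0.16).

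The fibrinogen chains form the clot, and Fgl1 is a liver-secreted relative of them. Fgl1 was at 157, 184, 237 and 169.8 CPM in Sham_Nx 2 to 5 and at 388, 361, 324, 579 and 633 CPM in ORX_Nx 1 to 5. In hypoxia Fgl1 was at 179, 278, 245, 494 and 274 CPM in Sham_IH and 652, 401, 407, 369 and 376 CPM in ORX_IH. The normoxic groups did not overlap, and the rise of 1.29 ± 0.27 (adjusted p = 0.00503) was 0.93 ± 0.26 (adjusted p = 0.0352) without ORX_Nx 4 and ORX_Nx 5.

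Fgb, the fibrinogen beta chain, was at 3370.2, 2755, 3325 and 3022 CPM in Sham_Nx 2 to 5 and at 3734, 3919, 3794, 5895 and 4102 CPM in ORX_Nx 1 to 5. In hypoxia Fgb was at 3639, 4144, 3716, 4541 and 3629.9 CPM in Sham_IH and 4406, 4610.1, 3828, 3966 and 4025 CPM in ORX_IH. All 15 libraries of the other groups were above the highest Sham_Nx library. The 3 chain genes are neighbours on chromosome 3 and moved by small amounts in ORX_Nx: Fgb rose by 0.46 ± 0.13 (adjusted p = 0.0286) and Fgg by 0.40 ± 0.13 (adjusted p = 0.0471), and Fga gave 0.34 ± 0.15 (adjusted p = 0.128). The Fgb call was lost without Sham_Nx 3, Sham_Nx 4, Sham_Nx 5 or ORX_Nx 4 (adjusted p of up to 0.0837) and the Fgg call in 13 of the 19 fits (up to 0.137).

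The protease inhibitor group holds Serpina3n, an inhibitor of serine proteases, and the inter-alpha-trypsin inhibitor heavy chains Itih3 and Itih4, which are neighbours on chromosome 14. The promoter of Itih4 is shown because its rise held in every alternative run and a STAT3 match, in capitals, begins 51 bases before the start (GRCm38.p6, chr14:30886226-30886475, + strand, 250 bases before the start, 5′ to 3′).

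Itih4: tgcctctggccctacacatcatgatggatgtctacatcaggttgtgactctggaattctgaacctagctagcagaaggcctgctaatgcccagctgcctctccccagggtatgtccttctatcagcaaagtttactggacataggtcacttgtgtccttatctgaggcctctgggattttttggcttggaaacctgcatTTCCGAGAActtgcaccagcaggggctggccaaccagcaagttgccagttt

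Itih4 was at 1388, 1322, 1153 and 1474 CPM in Sham_Nx 2 to 5 and at 2437, 2149, 2204, 3031 and 2616 CPM in ORX_Nx 1 to 5. In hypoxia Itih4 was at 1638, 1985, 1554, 2711 and 1984 CPM in Sham_IH and 2559.7, 2174, 1721, 2525 and 2223 CPM in ORX_IH. The ORX_Nx libraries lay close together, at 1.61-fold to 2.27-fold the Sham_Nx mean, and none overlapped with Sham_Nx. The log2 fold change was 0.90 ± 0.16 (edgeR, adjusted p = 0.00160), and 0.76 ± 0.17 (adjusted p = 0.00966) without ORX_Nx 4 and ORX_Nx 5. The call held in the 32 alternatives run, at an adjusted p of up to 0.0469. Serpina3n was at 264, 282, 329.9 and 289.8 CPM in Sham_Nx and 423, 440.0, 405, 679.6 and 495 CPM in ORX_Nx, with no overlap. Serpina3n rose by 0.74 ± 0.18 (adjusted p = 0.0113), with 0.53 ± 0.18 (adjusted p = 0.0689) without ORX_Nx 4 and ORX_Nx 5. Itih3 gave 0.45 ± 0.17 (adjusted p = 0.0806).

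Motif matches were counted over all members with a RefSeq promoter (GRCm38.p6, an older build than the GRCm39 of the files), 31 of 38, in the 250 bases before the start and on both strands. The STAT3 motif (TTCNNNGAA) matched in 6 of 31 members, 19.4%, against 8.13% of 27025 genes of the RefSeq table. These 6 were Steap4, Apcs, Fga, Fgb, Itih4 and Socs3, of which Fga did not pass the test in ORX_Nx. The pattern TTGCNNCAA, the only one searched for C/EBP, matched in Fga and Cxcl1, 6.45% against 1.98% of genes. C/EBP sites of other spacing were not searched, so these shares do not count C/EBP sites as such. The NF-kB consensus matched in 5 members, Steap4, Cxcl1, Cxcl2, Il1r1 and Nfkbia, 16.1% against 4.46% of genes. A match describes these letters only, and binding was not measured.

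In each treatment group a few libraries were high for most members. ORX_Nx 4 was the highest library of its group in 26 of 37 members and ORX_Nx 5 in the other 11, so mice 1 to 3 led in none. ORX_IH 1 was highest in 23 members of its group and Sham_IH 4 in 23 of its own. Over the Sham_Nx mean, ORX_Nx 4 and ORX_Nx 5 shared 16 members above 2-fold, and 10 were above 2-fold in ORX_Nx 4 but not in ORX_Nx 5 (Saa4, Hp, Steap4, Serpina3n, Itih4, Il6ra, Stat3, Socs3, Cebpb and Cebpd). No member was above 2-fold in ORX_Nx 5 and not in ORX_Nx 4. Against the same mean, 8.53% of all genes were above 2-fold in ORX_Nx 4 and 13.1% in ORX_Nx 5.

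**Figure D3:**
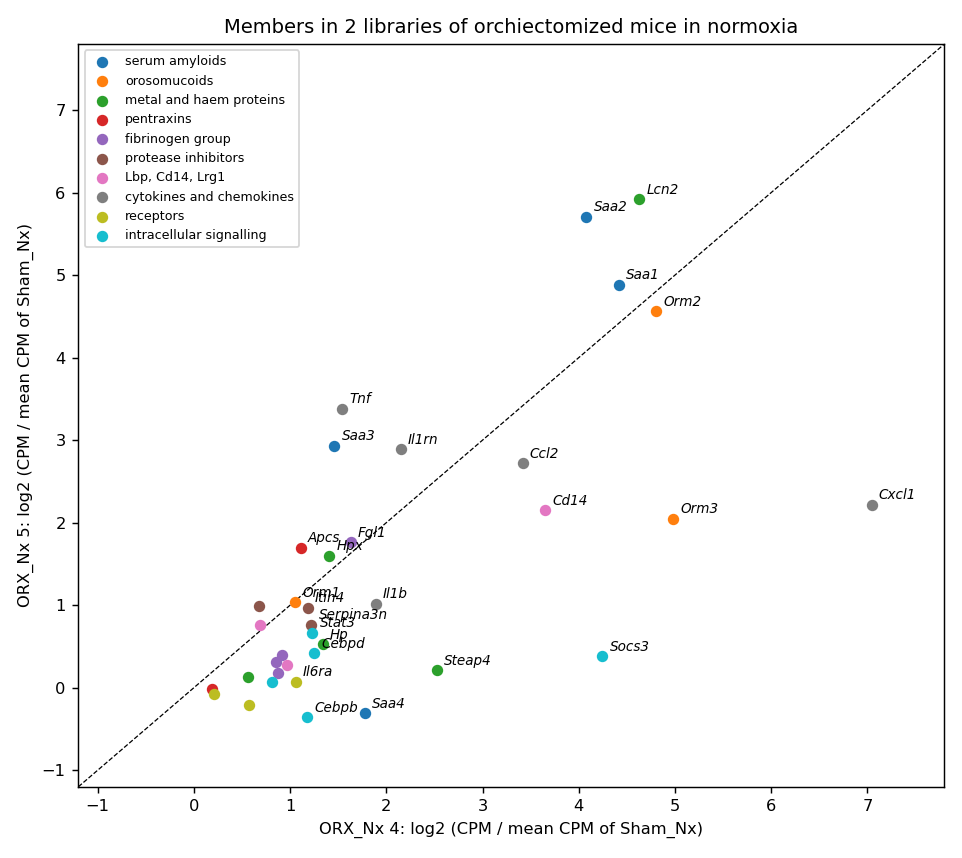
Each point is 1 of the 37 tested members, coloured by role; the axes give log2 of the CPM in ORX_Nx 4 and in ORX_Nx 5 over the mean CPM of Sham_Nx, and the dashed line marks equal values. Cxcl1 lies at 132.0-fold in ORX_Nx 4 and 4.65-fold in ORX_Nx 5 and Socs3 at 19.0-fold and 1.3-fold, while Saa2 lies at 16.9-fold and 52.3-fold and Lcn2 at 24.8-fold and 60.5-fold.

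Under intermittent hypoxia, orchiectomy was followed by fewer calls. In ORX_IH against Sham_IH 1 of 37 members rose, Orm3, by 2.99 ± 0.74 (edgeR, adjusted p = 0.0351), and none fell, where 1.31% of all genes rose and 1.57% fell. Over all genes 211 rose and 254 fell, a split that was 830 to 141 without scaling factors, when the median of all genes moved to 0.13 and 2 members rose, Orm2 and Orm3. The median log2 fold change was 0.13 over the members and -0.0043 over all genes. The Orm3 call was lost without Sham_IH 1, Sham_IH 3, Sham_IH 4, ORX_IH 1, ORX_IH 2 or ORX_IH 5, at an adjusted p of up to 0.129. The member with the lowest adjusted p after it was Orm2 at 2.39 ± 0.65 (adjusted p = 0.0551). In Apcs and Tnf, 2 members, every ORX_IH library was above every Sham_IH library, against 2.77% of all genes.

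The leading member of each role in this comparison was named by the size of its change, and of these only Orm3 passed the test. Saa2 gave 2.80 ± 0.90 (adjusted p = 0.103), Lcn2 2.54 ± 0.83 (adjusted p = 0.1096) and Tnf 1.61 ± 0.54 (adjusted p = 0.117). Cd14 gave 0.74 ± 0.51, Apcs 0.64 ± 0.21, Fgl1 0.58 ± 0.24, Socs3 0.57 ± 0.58, Serpina3n 0.28 ± 0.17 and Il1r1 -0.34 ± 0.21. For Saa2 and Lcn2, ORX_IH 1 was the highest library of its group and ORX_IH 3 lay within the Sham_IH range. The model is fitted over all groups: without ORX_Nx 4 and ORX_Nx 5, which are in neither group, 7 members rose (Saa2, Orm2, Orm3, Lcn2, Apcs, Tnf and Il1rn), without ORX_Nx 5 alone 6 rose, and without ORX_IH 1 alone none did. Over all genes 512, 350 and 104 rose in these fits, in that order, against 211 in the main fit. Of the skeletal muscle markers 9 of 10 rose in this comparison, with sums of 1.04 to 1.67 CPM in Sham_IH. In ORX_IH the sums were high in ORX_IH 1 (1074 CPM) and ORX_IH 2 (633 CPM) only. They were 1.10, 1.27 and 1.07 CPM in ORX_IH 3 to 5. When the 4 muscle-rich libraries were left out no member rose, and none did without the 3 libraries rich in pancreatic RNA (Sham_IH 5, Sham_Nx 5 and ORX_IH 1). Over all genes 59 and 77 rose in these fits. Of the Kupffer cell and macrophage markers none of 12 passed here, and of the lymphocyte markers 2 of 10 rose. The part of these tissues and cells in the values was not tested.

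**Figure D4:**
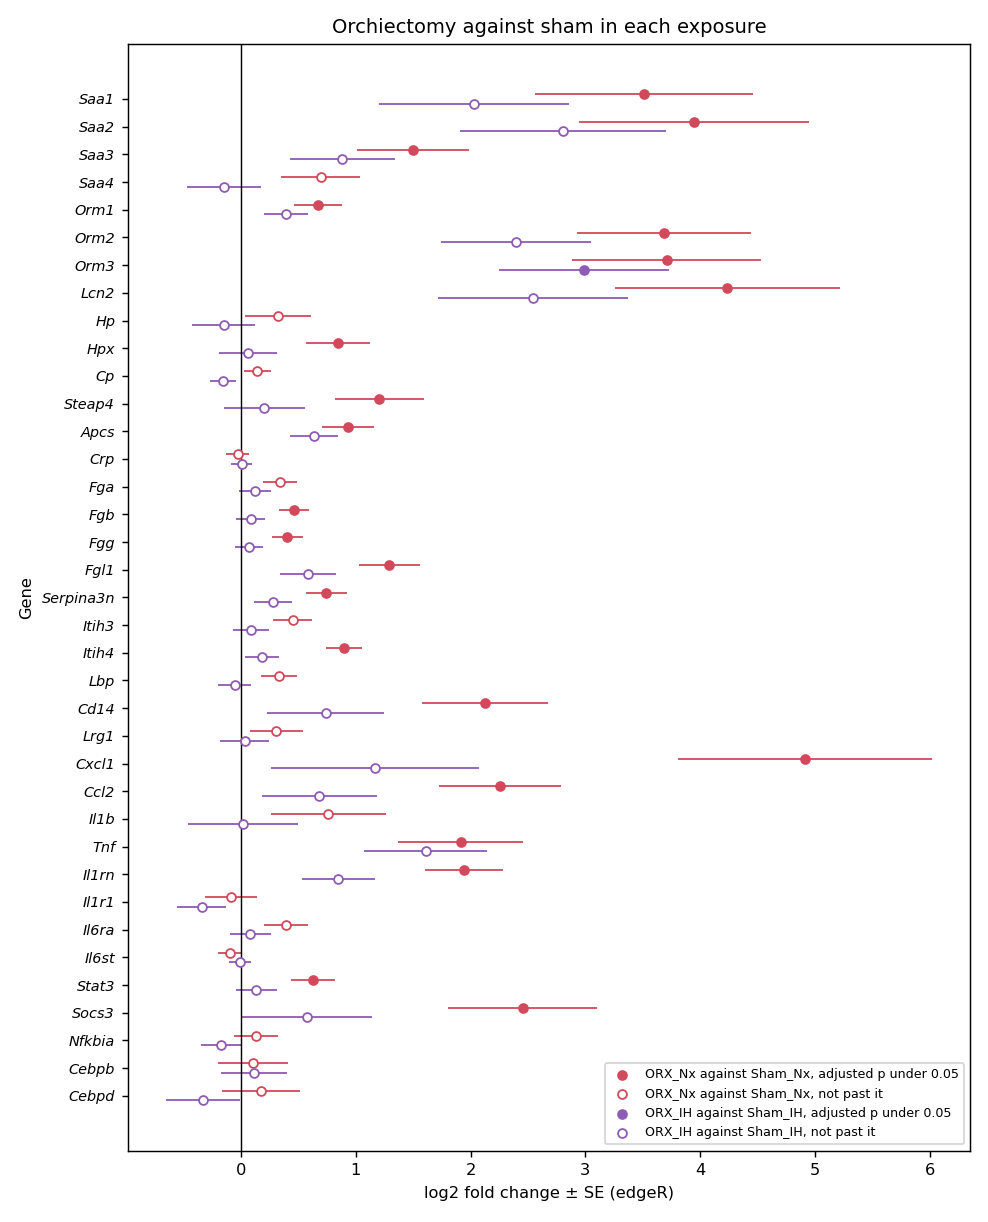
Points give the log2 fold change and bars its standard error (edgeR) for each tested member, in normoxia (ORX_Nx against Sham_Nx) and in intermittent hypoxia (ORX_IH against Sham_IH); filled points passed an adjusted p of 0.05. In normoxia 22 points are filled and in hypoxia 1, Orm3, and the bars of Saa1, Saa2, Lcn2 and Cxcl1 are the widest.

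The difference between the 2 effects of orchiectomy was tested by the interaction. No member passed in edgeR, and no gene of the whole table did, 0% of those tested. At an unadjusted p under 0.05 (edgeR) were 5 members, against 6.34% of all genes. DESeq2 called none of the members and 62 of all genes. The estimate was negative in 34 of 37 members, with a median of -0.50 against -0.017 over all genes, of which 46.6% were above 0. The 5 were Cxcl1 (-3.75 ± 1.35), Socs3 (-1.89 ± 0.84), Ccl2 (-1.57 ± 0.72), Il1rn (-1.09 ± 0.46) and Itih4 (-0.72 ± 0.22), with adjusted p values from 0.553 to 0.778. Without ORX_Nx 4 and ORX_Nx 5, which hold each member's highest ORX_Nx value, the median of the members was -0.018. By this test the effect of orchiectomy was not shown to differ between normoxia and hypoxia for any member.

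Intermittent hypoxia alone changed no member at the threshold. In Sham_IH against Sham_Nx edgeR called 0 of 37, where 0.099% of all genes rose and 0.204% fell. At an unadjusted p under 0.05 (edgeR) were 8 members, against 13.1% of all genes. DESeq2 called 1, Itih4, and limma-voom and limma-trend none. The median was 0.19 over the members and 0.0048 over all genes. In 7 of 37 members every Sham_IH library was above every Sham_Nx library (Cp, Apcs, Fga, Fgb, Serpina3n, Itih3 and Itih4), against 4.31% of all genes. In 1, Saa2, every Sham_IH library was below, against 4.21%. Itih4 gave 0.57 ± 0.16 (edgeR, adjusted p = 0.121), Serpina3n 0.54 ± 0.18 and Itih3 0.53 ± 0.17. The largest estimates were those of Lcn2, 0.91 ± 0.90 (adjusted p = 0.733), and Saa2, -0.83 ± 0.93 (adjusted p = 0.774). In the remaining roles the largest were 0.73 ± 0.70 for Orm2, 0.63 ± 0.23 for Apcs, 0.66 ± 0.26 for Fgl1, 0.49 ± 0.23 for Lrg1, -0.64 ± 0.50 for Il1b, 0.40 ± 0.23 for Il1r1 and -0.37 ± 0.30 for Cebpb. With only these 2 groups in the fit, Apcs, Serpina3n and Itih3 rose and Saa2 fell, where 232 of all genes rose and 251 fell.

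In orchiectomized mice, hypoxia was followed by a fall of 1 member. Il1rn fell by 1.67 ± 0.31 in ORX_IH against ORX_Nx (log2, edgeR, adjusted p = 0.04998), where 0.0557% of all genes fell, and every ORX_IH library was below every ORX_Nx library, against 1.12% of all genes. The adjusted p is at the edge of the threshold, and the call was lost in 13 of the 19 fits that left out 1 library, at an adjusted p of up to 0.135. No member rose, where 0.0186% of all genes did. The median was -0.39 over the members and -0.0080 over all genes. At an unadjusted p under 0.05 (edgeR) were 13 members, against 17.1% of all genes. The largest values were -3.28 ± 0.92 for Cxcl1 (adjusted p = 0.0924), -1.98 ± 0.83 for Saa2 (adjusted p = 0.228), -1.75 ± 0.58 for Socs3 (adjusted p = 0.131) and -1.75 ± 0.50 for Cd14 (adjusted p = 0.0987). Apcs (0.33 ± 0.21), Crp (0.21 ± 0.091), Lrg1 (0.22 ± 0.22) and Itih3 (0.17 ± 0.16) were on the other side of 0, and Lcn2, Orm2, Fga, Fgg and Il6ra lay between -0.78 and 0.06. DESeq2 called 4 falls, Il1rn, Ccl2, Cd14 and Il1b, where it called 392 falls over all genes against 9 in edgeR. Without ORX_Nx 4 and ORX_Nx 5 no member fell and Apcs rose, where 29 of all genes fell and 11 rose. The median of the members was 0.11 in that fit, which leaves out each member's highest ORX_Nx value. It was -0.0089 without ORX_Nx 4 alone. Markers of other cells moved with these values: none of the 12 Kupffer cell and macrophage markers was above 0 in ORX_IH against ORX_Nx (median -0.84), nor any of 5 neutrophil markers tested (median -1.84), and no marker of either list passed the test. Their part in the members' values was not tested.

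With both orchiectomy and hypoxia, 8 members rose against Sham_Nx and none fell, where 3.53% of all genes rose and 5.1% fell. Over all genes 570 rose and 824 fell, a split that was 1157 to 357 without scaling factors, when the median of all genes moved to 0.13 and 12 members rose. This comparison and that of ORX_Nx share the Sham_Nx controls. The median was 0.40 over the members and 0.016 over all genes, and in 10 members the groups did not overlap, against 5.69% of all genes. The 8 were Lcn2 (3.46 ± 0.95), Orm3 (3.15 ± 0.81), Orm2 (3.13 ± 0.74), Apcs (1.26 ± 0.23), Fgl1 (1.24 ± 0.27), Serpina3n (0.82 ± 0.18), Itih4 (0.75 ± 0.16) and Itih3 (0.62 ± 0.17), with adjusted p values (edgeR) from 0.00205 in Apcs to 0.0302 in Itih3. All 3 protease inhibitors were among them, and no serum amyloid, cytokine, receptor or intracellular member was. Saa2 gave 1.97 ± 0.92, Cxcl1 1.63 ± 0.99, Lrg1 0.52 ± 0.23, Il6ra 0.23 ± 0.19 and Socs3 0.71 ± 0.61. Side by side, Apcs was at 1.26 in ORX_IH and 0.93 in ORX_Nx against the same controls, Itih4 at 0.75 and 0.90, and Il1rn at 0.27 and 1.94. Without ORX_IH 1, and likewise without Sham_Nx 2, Sham_Nx 3 or Sham_Nx 5, 5 members rose, and without ORX_Nx 4 and ORX_Nx 5, which are in neither group but enter the shared fit, 13 did. Over all genes 458 rose without ORX_IH 1 and 901 without ORX_Nx 4 and ORX_Nx 5, against 570 in the main fit. None rose without the 4 muscle-rich libraries, and without the 3 pancreas-rich ones 2 did, Apcs and Itih4, where 54 and 216 of all genes rose.

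The other genes of the pathways were followed in lists, to be read against the 7.88% of all genes that rose and the 6.46% that fell in ORX_Nx against Sham_Nx. In ORX_Nx against Sham_Nx none of 12 tested genes of the interleukin-6 to STAT3 pathway passed the test (edgeR), and those with the lowest adjusted p were Ptpn11, a phosphatase (-0.16 ± 0.06, adjusted p = 0.106), and Bcl3 (0.54 ± 0.24, adjusted p = 0.133). Il6 itself held 73 counts over all libraries. Of 15 genes of the interleukin-1 and Toll-like receptor pathway 3 rose (Il1a, Il18, Tlr2) and 2 fell, Irak1 (-0.22 ± 0.05, adjusted p = 0.00782) and Tab1 (-0.62 ± 0.16, adjusted p = 0.0169), both signal transducers. Of 17 genes of the NF-kB and TNF pathway 5 rose and 1 fell; Ikbkg, the regulatory subunit of the IkB kinase, fell by 0.44 ± 0.08 (adjusted p = 0.00151) and Relb, an NF-kB subunit, rose by 1.32 ± 0.25 (adjusted p = 0.00298). Of 5 other cytokines tested 1 rose, Tgfb1 (0.69 ± 0.20, adjusted p = 0.0302), with Cxcl13 next (2.49 ± 1.02, adjusted p = 0.105). The median over these lists was 0.079, 0.13, 0.29 and 0.69, and over all genes 0.013.

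The negative acute phase proteins, whose levels drop in a classical response, held no fall that passed the test. Of 6 tested (Alb, Ttr, Trf, Rbp4, Ahsg and Fetub) 1 passed in ORX_Nx, Fetub, which rose by 0.35 ± 0.10 (adjusted p = 0.0306), and the median was 0.24. The summed level of the 6, most of it Alb, was 70046 CPM in ORX_Nx 5, the lowest of all libraries, and 97760 to 119968 CPM in the other ORX_Nx libraries, against 79533 to 92067 CPM in Sham_Nx. In ORX_Nx 4, the library highest in most members, it was 106304 CPM. ORX_Nx 5 was also the lowest library in the sum of hepatocyte markers, 71686 CPM, a list that shares Alb and Ttr with this one. No gene of this list passed in ORX_IH against Sham_IH.

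The authors' deposited table gives a q-value for any difference among the 4 groups. Of the members, 6 had in the authors' deposited table a q-value under 0.05: Il1rn (0.00319), Itih4 (0.0187), Orm3 (0.0297), Apcs (0.0311), Orm2 (0.0334) and Fgl1 (0.0347). Saa1 (0.234), Lcn2 (0.119) and Cxcl1 (0.1001) did not reach it in the authors' deposited table.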

How the data were processed

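RNA of frozen liver was sequenced after poly(A) selection with a directional kit, per the labels' protocols. Per the submitters' processing notes, the tools were bcl2fastq 2.20, fastp 0.23.2, FastQC 0.11.9, MultiQC 1.12 and kallisto 0.46.1, with GRCm39; whether counting used strand is not stated there. The authors deposited estimated counts per gene, made with kallisto per those notes, beside a mean transcript length; 27.5% of the values were not whole, so the estimated counts were rounded. The authors also deposited a table of log2 values, whose normalization is not stated, with p-values and q-values for any difference among the groups.

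Genes were kept with edgeR's filterByExpr at a minimum count of 10. One quasi-likelihood model over the 4 groups with TMM scaling (edgeR 4.0.16, R 4.3.3) gave all comparisons, with Benjamini-Hochberg adjustment over 16164 genes and a threshold of 0.05. CPM uses TMM library sizes, and a standard error is the fold change over the root of F. The model was tested on simulated data. Totals were 29291573 to 69550879 counts, at which 3 counts equal 0.0431 to 0.102 CPM; such a floor covers counting error only. No libraries were duplicates (chi-square per degree of freedom 19.3 to 184). Promoters are RefSeq sequences of GRCm38.p6.

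The members and lists were chosen with earlier results of these data known. Members named are those past the threshold in a comparison and the largest change in each role; full library values are given for the largest in each role and some others, and other pathway genes are named for the 2 lowest adjusted p values. Alternatives were other scaling, no filter, DESeq2 1.42.0, limma 3.58.1 (voom, and trend on the deposited log2 table), only the compared groups, a replicate block, and leaving out libraries.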

Additional observations from a re-analysis of the deposited data

Results flagged for a closer look

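Of 148 groups of libraries, 1 for each member and treatment group, 28 held a library set apart from the rest of its group by Dixon's criterion. Of these, 11 were in ORX_Nx 4, 7 in Sham_IH 4, 5 in ORX_IH 1 and 2 in ORX_Nx 5. The criterion assumes normally spread values, while CPM were used untransformed, and the members share the same libraries. No chance rate is therefore set beside the 28. Values are in CPM, and no cause was tested.

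In ORX_Nx 4 the high values of signalling members were Cxcl1 at 222.1, with the next library of the group at 9.92, Socs3 at 140.6 (next 26.4), Cebpb at 135.3 (next 56.1), Nfkbia at 52.63 (next 31.3) and Il6ra at 80.3 (next 49.1). Its high secreted proteins were Fga at 6094, Fgb at 5895, Fgg at 4205, Cp at 1541 and Lbp at 245, with the membrane protein Steap4 at 499.2. The fibrinogen chains thus stood apart in the same mouse as Cxcl1 and Socs3.

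In ORX_Nx 5 it was Saa3, at 24.8 (next 8.91), and Tnf, at 1.788 (next 0.603). ORX_IH 1 stood apart in Saa1 at 133.8 (next 35.9), Saa2 at 77.09 (next 21.5), Orm2 at 101.6 (next 30.8), Fgl1 at 652.4 (next 407) and Cd14 at 3.474 (next 1.83).

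Among sham-operated mice, Sham_IH 4 stood apart in Hpx at 3498, Cp at 1477, Lrg1 at 753.7, Stat3 at 119, Il6ra at 50.47, Socs3 at 12.32 and Cxcl1 at 5.661. Sham_IH 1 was low in Lcn2, at 2.91. Sham_Nx 3 was high in Cd14, at 1.91, and Sham_Nx 4 was low in Nfkbia, at 23.05.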

How the results depend on the processing

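No member's direction was reversed among called results. In ORX_Nx against Sham_Nx, 22 members rose, where 1274 of all genes did. Brackets below give the rises over all genes in the same fit. Members that rose numbered 10 with limma-voom (830), 12 with limma-trend on the authors' log2 table (920) and 8 with only the compared groups (388). There were 7 without ORX_Nx 4 and 5 (702), 3 without the 4 muscle-rich libraries (147) and 12 without the 3 pancreas-rich ones (519). Over libraries numbered 1 to 16, 7 rose (460). An added setting, chosen after seeing the data, left out ORX_Nx 4, ORX_Nx 5 and ORX_IH 1, and 9 rose (702). In ORX_IH against Sham_IH, 1 rose, and in the same order of settings 0 did with limma-voom, 4 with only the compared groups, 7 without ORX_Nx 4 and 5, 0 without muscle-high, 0 without pancreas-high and 4 in the added setting, with 2 without scaling factors and 5 with DESeq2.

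In Sham_IH against Sham_Nx none rose, against 1 with DESeq2, 3 with only the compared groups (and 1 that fell), 2 without ORX_Nx 4 and 5 and 2 in the added setting. In ORX_IH against ORX_Nx 1 fell, where 9 of all genes fell, and 4 did with DESeq2, where 392 fell. None fell without scaling factors (13 falls over all genes), without the filter (0), with limma-voom (9), limma-trend (0) or only the compared groups (1). None fell over libraries numbered 1 to 16 (8), without ORX_Nx 4 and 5 (29), muscle-high (0) or pancreas-high (0), or in the added setting (0). Without ORX_Nx 4 and 5, 1 rose, where 11 of all genes rose. In ORX_IH against Sham_Nx 8 rose, where 570 of all genes did, and 13 without ORX_Nx 4 and 5, where 901 did. None rose without muscle-high (54 rises over all genes), 2 without pancreas-high (216) and 5 over libraries numbered 1 to 16 (384). The cause was not tested.

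Leaving out 1 library gave 12 to 23 rises in ORX_Nx against Sham_Nx, 0 to 6 in ORX_IH against Sham_IH, 5 to 12 in ORX_IH against Sham_Nx, 0 to 3 falls in ORX_IH against ORX_Nx, and 0 to 0 in Sham_IH against Sham_Nx and the interaction. Over all genes, the calls in ORX_Nx against Sham_Nx numbered 2319, with 422 to 3064 in the other settings, and in ORX_IH against Sham_IH 465, with 107 to 971. They numbered 49 in Sham_IH against Sham_Nx, with 0 to 483, 12 in ORX_IH against ORX_Nx, with 0 to 706, and 1394 in ORX_IH against Sham_Nx, with 132 to 2036.

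Mouse numbers are shared between groups, but the labels do not state that they mark shared litters or days. The numbers were therefore not taken to pair the mice. Of 27 pairs with the same number, 4 had deviations correlated above 0.1 (range -0.183 to 0.635). Pairs with different numbers were not set beside them, so these correlations cannot decide whether the numbers pair the mice. With the replicate block, 14 members rose in ORX_Nx against Sham_Nx, 0 in ORX_IH against Sham_IH, and 0 fell in ORX_IH against ORX_Nx. The interaction with only the compared groups has no separate fit. Depth limits Cxcl2 (160 counts over all libraries), Tnf (334) and Il6 (73).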
